A study of Mus musculus with 6 samples.

Results

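The genes of fatty acid synthesis and desaturation were followed in mouse liver as 10 members chosen by symbol: Srebf1, Acly, Acaca, Acacb, Fasn, Scd1, Elovl5, Elovl6, Fads1 and Fads2, out of 18253 symbols listed in at least 1 library. All 10 were listed in each of the 6 libraries, and all passed the filter on low values, so none had to be set to 0. The study compared C57BL/6 mouse livers, with postnatal day 21 as the labelled age, after the bile duct toxicant alpha-naphthylisothiocyanate (ANIT), which causes cholestasis (3 libraries, the ANIT group), with livers after ANIT together with celastrol, a triterpenoid from the thunder god vine (3 libraries, the celastrol group). Treatment lasted 5 days. Both groups received ANIT and neither is untreated, so the levels below cannot be set against those of a normal liver. Doses are not given in the labels, and the degree of injury in each group was not measured here. Whether each library came from 1 animal or from a pool is not stated, and p-values measure the spread between these libraries.

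Liver makes fatty acids from surplus carbohydrate. Citrate leaves the mitochondria and is cleaved to acetyl-CoA, which acetyl-CoA carboxylase turns into malonyl-CoA and fatty acid synthase joins into palmitate, and elongases and desaturases then lengthen the chain and insert double bonds. The genes of these enzymes are classic targets of the SREBP transcription factors, which are held in the endoplasmic reticulum as precursors and released by cleavage, and in liver the SREBP1 form encoded by Srebf1 also responds to insulin and to the oxysterol receptor LXR. The carbohydrate-sensing factor ChREBP, encoded by Mlxipl, acts on several of the same genes.

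Values are FPKM, the fragments assigned to a gene per kilobase of its length and scaled to the fragments of the library. Per library, depth was estimated as the value at which low FPKM times exon length came closest to whole reads, and was 18940000 to 19840000 reads. The fit was loose, with 51.3% to 59.4% of these values within 0.2 reads of a whole number. Evenly spread values would also often lie that near a whole number, and the depth was picked as the best fit. The estimate is therefore weakly supported. At that depth the member value with the fewest estimated reads (Elovl6 in celastrol replicate 2) would rest on about 463 reads. Its counting error would be near 4.65%. The sum of FPKM was 532571 to 545885 with ANIT and 581962 to 600952 with celastrol. Celastrol replicate 2 stood apart: its root mean square difference from the other celastrol libraries over the genes tested was 0.411 and 0.478 on the log2(FPKM + 1) scale, against 0.284 between replicates 1 and 3 and 0.283 to 0.387 within the ANIT group. Its 10 most abundant genes held 20.7% of the FPKM sum, against 33.2% and 31.5% in celastrol replicates 1 and 3. In the ANIT libraries this share was 20.3% to 21.9%, so by this measure celastrol replicates 1 and 3 were the ones that differed. Celastrol replicate 2 lay 0.574 to 0.652 from the ANIT libraries, against 0.636 to 0.667 for celastrol replicates 1 and 3.

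Celastrol-group livers had lower levels of 6 of the 10 genes, and of none a higher level past the test. Those that fell were Acly, Acaca, Fasn and Elovl6, which act in making saturated chains from citrate, and Elovl5 and Fads2, which act on polyunsaturated chains. Srebf1, which encodes the SREBP1 transcription factor, Acacb and the desaturase genes Scd1 and Fads1 did not pass. The test was limma on log2(FPKM + 1) over the 10593 genes that reached 1 FPKM in 3 or more libraries, with Benjamini-Hochberg adjusted p under 0.05, by which 20.6% of all genes tested were lower and 4.41% higher. The median log2 fold change of the 10 members was -1.08, and that of all genes tested was -0.17. Because the median of all genes moved with the scaling of the libraries, to -0.022 with median-ratio scaling and to -0.30 when rescaled to TPM, each fall is to be read against such a shift. All 6 falls passed under each of the 13 other settings tried, the omission of any 1 library among them, with a largest limma adjusted p of 0.046.

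**Figure D1:**
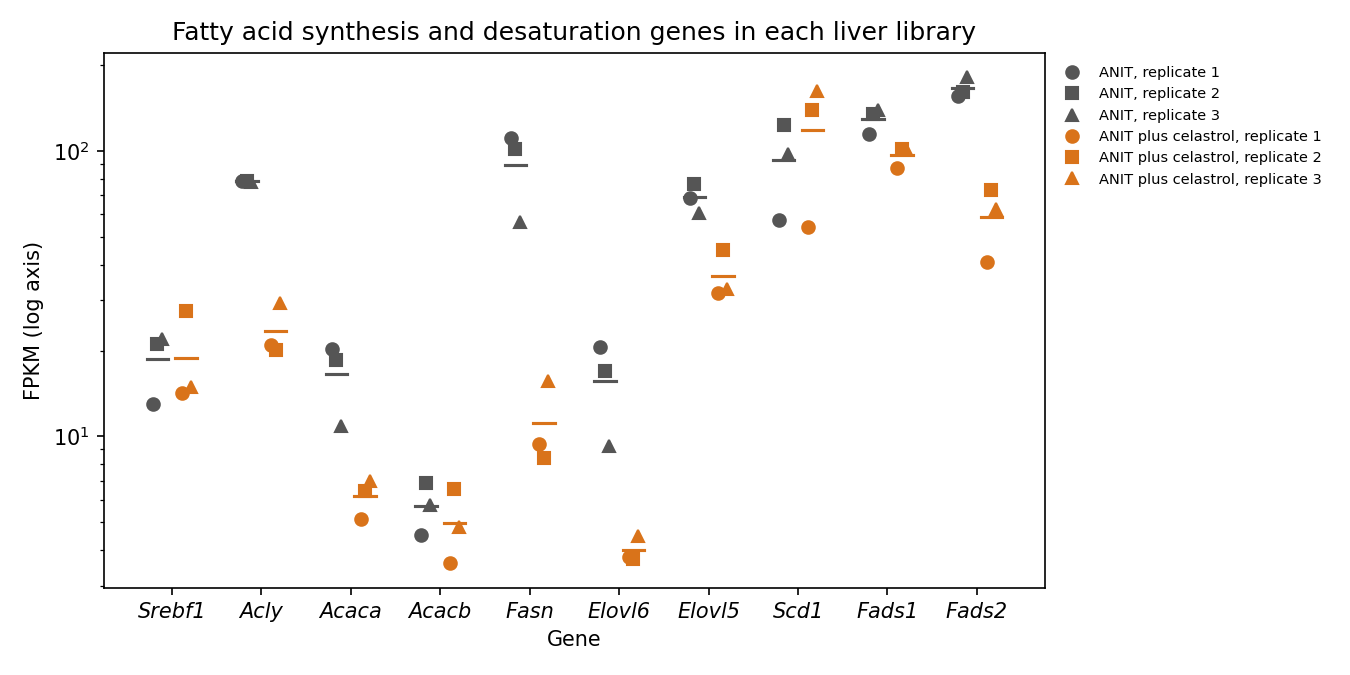
FPKM (log axis) of each of the 10 genes in the 6 libraries, with ANIT in grey, ANIT plus celastrol in orange, a marker shape for each replicate and a short line at each group mean. The groups lie apart for Acly, Acaca, Fasn, Elovl6, Elovl5, Fads1 and Fads2, and overlap for Srebf1, Acacb and Scd1.

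Per length, Fads2, Fads1 and Scd1 were the most abundant of the 10 genes with ANIT, at group means of 166, 130 and 92.9 FPKM, and Acacb the least, at 5.72 FPKM. With celastrol the order changed at the top to Scd1, Fads1 and Fads2, at 119, 96.9 and 58.8 FPKM, and Elovl6 was lowest at 3.997 FPKM. The ranges of Scd1 and Fads1 overlapped in both groups, so their order is not resolved, and with ANIT Fasn, at 89.8 FPKM, overlapped Scd1. Groups did not overlap for 7 of the 10 members, all lower with celastrol, where 36.6% of all genes tested lay wholly lower.

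Srebf1 (chromosome 11, positions 60199089 to 60222581 on the minus strand of mm10) measured 12.97, 21.03 and 22.03 FPKM in ANIT replicates 1, 2 and 3 and 14.17, 27.54 and 14.94 FPKM in celastrol replicates 1, 2 and 3. The lowest value belonged to an ANIT library and the highest to a celastrol library, and the group means were 18.7 ± 4.97 and 18.9 ± 7.51 FPKM (SD, n = 3 each). Its log2 fold change was -0.013 (95% interval -0.72 to 0.69, adjusted p = 0.98 by limma), and it was positive under 6 of the 13 other settings, so no direction can be given. These values are of all Srebf1 transcripts together, and neither the isoforms nor the cleavage of the protein were measured. Its exons share 109 bases with those of Rai1 on the opposite strand, and whether reads were counted by strand is not given in the sources used here. Rai1 reached at most 3.27 FPKM.

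Acly encodes ATP citrate lyase, which supplies cytosolic acetyl-CoA (chromosome 11, positions 100476353 to 100528000, minus strand). Its FPKM was 78.58, 78.55 and 78.24 with ANIT and 20.99, 20.02 and 29.25 with celastrol. The ANIT libraries were nearly identical, and each celastrol library lay below them by more than the spread within its own group. The celastrol mean was 29.9% of the ANIT mean (log2 fold change -1.72 with SE 0.16, adjusted p = 0.00083 by limma).

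The carboxylases that make malonyl-CoA differed from each other. Acaca, the cytosolic form that feeds synthesis (chromosome 11, positions 84129672 to 84401651, plus strand), measured 20.2, 18.48 and 10.88 FPKM with ANIT, against 5.14, 6.41 and 6.99 FPKM with celastrol. ANIT replicate 3 was the low one of its group yet still above every celastrol library, and the mean fell to 37.4% (log2 fold change -1.25 with SE 0.23, adjusted p = 0.0095 by limma). Acacb, the form at the mitochondrial surface whose malonyl-CoA restrains fatty acid oxidation (chromosome 5, positions 114146535 to 114250761, plus strand), measured 4.51, 6.87 and 5.77 FPKM with ANIT, against 3.59, 6.53 and 4.83 FPKM with celastrol. The groups overlapped, and the log2 fold change of -0.18 did not pass (95% interval -0.66 to 0.29, adjusted p = 0.54 by limma).

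Fasn had the lowest log2 fold change of the 10 genes. It encodes fatty acid synthase, which makes palmitate (chromosome 11, positions 120805846 to 120824547, minus strand). Its FPKM was 111.34, 101.59 and 56.36 with ANIT and 9.43, 8.43 and 15.65 with celastrol. ANIT replicate 3 was well below the other ANIT libraries, but still lay far above the highest celastrol value. The mean fell from 89.8 ± 29.3 to 11.2 ± 3.91 FPKM (SD, n = 3 each), 8.04-fold lower as a ratio of means, with a log2 fold change of -2.89 (SE 0.32, adjusted p = 0.0020 by limma). Of the 10593 genes tested, 28 (0.264%) had a lower log2 fold change.

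Both elongase genes fell. Elovl6, which extends palmitate to stearate (chromosome 3, positions 129532355 to 129638495, plus strand), measured 20.61, 17 and 9.22 FPKM with ANIT, against 3.79, 3.71 and 4.49 FPKM with celastrol. As with Acaca and Fasn, ANIT replicate 3 was the lowest of its group, and the celastrol mean was 25.6% of the ANIT mean (log2 fold change -1.67 with SE 0.27, adjusted p = 0.0070 by limma). Elovl5, which extends polyunsaturated chains (chromosome 9, positions 77917364 to 77984519, plus strand), measured 68.6, 77.03 and 60.88 FPKM with ANIT, against 31.74, 45.22 and 32.75 FPKM with celastrol. Its values did not overlap, and the mean fell to 53.1% (log2 fold change -0.91 with SE 0.17, adjusted p = 0.0094 by limma).

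Desaturase genes showed no common pattern. Scd1, the stearoyl-CoA desaturase of liver that makes oleate and palmitoleate (chromosome 19, positions 44394455 to 44407879, minus strand), measured 57.49, 123.6 and 97.6 FPKM with ANIT, against 54.21, 139.14 and 162.87 FPKM with celastrol. The lowest value of each group was that of its replicate 1, and the ranges overlapped. The log2 fold change of 0.27 did not pass (95% interval -0.87 to 1.41, adjusted p = 0.70 by limma), turned to -0.034 without ANIT replicate 1 and to -0.026 without celastrol replicate 3, and was 0.76 without celastrol replicate 1. Fads2, the desaturase that starts the conversion of linoleic and alpha-linolenic acid (chromosome 19, positions 10062765 to 10101746, minus strand), measured 156.39, 161.13 and 181.63 FPKM with ANIT, against 40.8, 72.92 and 62.72 FPKM with celastrol. No library of the groups overlapped, and the mean fell to 35.3% (log2 fold change -1.52 with SE 0.21, adjusted p = 0.0036 by limma).

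Fads1, the neighbour of Fads2 on chromosome 19 (positions 10182888 to 10196877, plus strand), makes arachidonic and eicosapentaenoic acid later in the same route. It measured 114.51, 135.56 and 139.47 FPKM with ANIT, against 87.55, 101.46 and 101.62 FPKM with celastrol. The groups did not overlap, but the celastrol mean was still 74.6% of the ANIT mean, and the log2 fold change of -0.42 missed the threshold (95% interval -0.74 to -0.10, adjusted p = 0.061 by limma). It passed without celastrol replicate 2 (adjusted p = 0.037), when rescaled to TPM (adjusted p = 0.022) and without the variance trend and robust variance (adjusted p = 0.043), and its adjusted p over all other settings ran from 0.022 to 0.34.

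**Figure D2:**
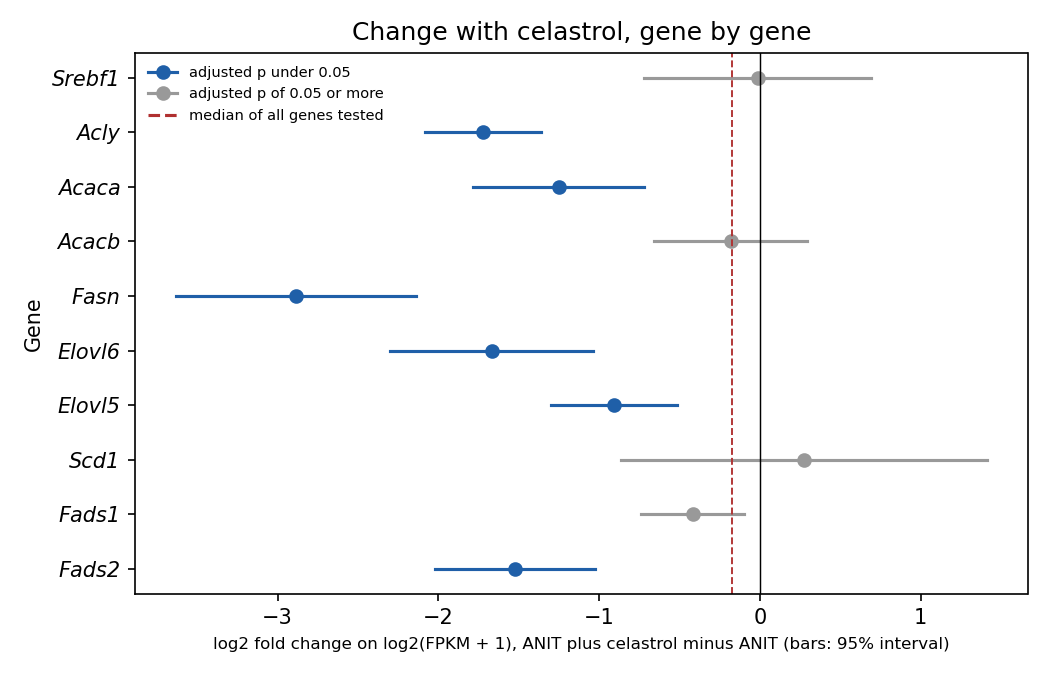
Log2 fold change (ANIT plus celastrol minus ANIT, on log2(FPKM + 1)) of the 10 genes with 95% intervals from limma, blue where the adjusted p was under 0.05, with the median of all genes tested as a dashed line at -0.17. The 6 blue genes run from Fasn at -2.89 to Elovl5 at -0.91, and the intervals of Srebf1, Acacb and Scd1 cross 0.

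Stearoyl-CoA desaturase has close relatives next to Scd1, and reads from the 4 genes may not be fully separable. Scd2, the form typical of brain and of the newborn, measured 4.91, 3.88 and 4.43 FPKM with ANIT, against 1.46, 1.37 and 1.51 FPKM with celastrol. It thus fell (log2 fold change -1.14 with SE 0.11, adjusted p = 0.00085 by limma) while the more abundant Scd1 did not pass. Scd3 reached at most 0.37 FPKM and Scd4 at most 0.12 FPKM, below the filter.

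The promoters of Fasn, Acly and Elovl5, which fell, and of Acacb, which did not pass, are shown because members that moved together may be compared for shared letters near their starts. The windows of Acaca, Elovl6 and Fads2, which also fell, and of Srebf1 were searched but are not printed. Each printed member that fell holds CCAAT and none of the unprinted ones that fell does, so the printed windows overstate what is shared. RefSeq windows (build GRCm38.p6, 250 bases before to 50 after a gene's start) matched 8 of the 10 members, with 10 windows in all. Starts follow the RefSeq models and can lie inside the span printed above: the Acacb start lay 18983 bases and the Acaca start 65766 bases within the GENCODE gene, as did Srebf1 starts at 1954 and 12110 bases, so their outermost starts were searched for Srebf1 but not for Acaca or Acacb. Each window is written 5′ to 3′ on the gene's own strand, and capitals mark matches on either strand to ATCACCC (the first letters of the sterol regulatory element bound by SREBP), CACGTG (the E-box), CCAAT (the element bound by NF-Y) and GGGCGG (the GC box bound by Sp1), or to their reverse complements. Fasn lies at chr11:120824498-120824797 (minus strand), Acly at chr11:100527951-100528250 (minus), Elovl5 at chr9:77917115-77917414 (plus) and Acacb at chr5:114165268-114165567 (plus).
Fasn: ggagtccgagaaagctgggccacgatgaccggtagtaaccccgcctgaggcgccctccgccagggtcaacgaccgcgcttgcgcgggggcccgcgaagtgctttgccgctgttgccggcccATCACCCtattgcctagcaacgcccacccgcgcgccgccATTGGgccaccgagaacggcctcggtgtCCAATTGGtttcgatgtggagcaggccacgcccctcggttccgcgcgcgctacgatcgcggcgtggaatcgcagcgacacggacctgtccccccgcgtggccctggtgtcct
Acly: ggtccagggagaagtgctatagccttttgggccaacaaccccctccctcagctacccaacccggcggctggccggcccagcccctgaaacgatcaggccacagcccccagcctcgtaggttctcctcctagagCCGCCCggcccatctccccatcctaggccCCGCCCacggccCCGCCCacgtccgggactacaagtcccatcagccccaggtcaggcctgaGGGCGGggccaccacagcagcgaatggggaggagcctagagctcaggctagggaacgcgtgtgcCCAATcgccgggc
Elovl5: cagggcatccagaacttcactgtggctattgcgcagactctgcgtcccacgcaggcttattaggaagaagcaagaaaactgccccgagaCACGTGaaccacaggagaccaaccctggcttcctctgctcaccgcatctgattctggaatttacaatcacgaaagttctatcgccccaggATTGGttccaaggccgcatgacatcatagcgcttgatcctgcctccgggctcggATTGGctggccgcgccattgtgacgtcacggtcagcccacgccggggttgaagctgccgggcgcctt
Acacb: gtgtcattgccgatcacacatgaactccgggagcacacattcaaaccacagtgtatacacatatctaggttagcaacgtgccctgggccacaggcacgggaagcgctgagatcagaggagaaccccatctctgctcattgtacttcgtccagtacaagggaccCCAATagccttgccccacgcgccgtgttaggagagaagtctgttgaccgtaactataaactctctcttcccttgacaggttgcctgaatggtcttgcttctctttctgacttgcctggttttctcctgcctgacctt

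In the Fasn window ATCACCC began 129 bases before the start, followed by 3 CCAAT matches beginning 90, 62 and 59 bases before it, of which the last pair overlap on opposite strands. Fasn was the only one of the 8 members with ATCACCC, which 2.69% of all 32851 windows hold. CACGTG occurred in Elovl5 alone (7.15% of all windows), 161 bases before its start. CCAAT occurred in 5 of the 8 members (37.4% of all windows), Acacb and Srebf1 among them, and GGGCGG in 3 (35.7% of all windows), with 4 matches in Acly. The windows of Acaca and Elovl6, which fell, held none of the 4 motifs, the Acaca window being an internal start. Among the members that fell, CCAAT was found in Fasn, Acly and Elovl5 and GGGCGG in Acly and Fads2. The Acly CCAAT match began at base 38 after the start, where those of Fasn and Elovl5 lay before it. A match is a run of letters and not a measured binding site, and elements outside these windows were not searched.

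Ratios of members within a library do not depend on how libraries were scaled to each other. In 6 pairs formed by role, the groups did not overlap in any, and each gave an exact permutation p of 0.1, two-sided (adjusted p = 0.1 over the 6 pairs), the smallest that 3 against 3 libraries allow, so no pair could pass 0.05. Acaca to Acacb, Fasn to Srebf1, Scd1 to Fasn and Fads1 to Fads2 each set a gene that fell against one that did not pass. Their separation thus largely restates the values of the single genes. The share of other gene pairs that do not overlap was not computed. The Scd1 to Fasn ratio was 0.516, 1.22 and 1.73 with ANIT and 5.75, 16.5 and 10.4 with celastrol, 9.68-fold higher by the mean of logs. The ratio was thus below 1 in ANIT replicate 1 alone and lay well above 1 in every celastrol library. The Fasn to Srebf1 ratio went from 8.58, 4.83 and 2.56 to 0.666, 0.306 and 1.05, or 7.92-fold lower. In both ratios the ANIT libraries differed among themselves by over 3-fold.

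The cytosolic to mitochondrial carboxylase ratio, Acaca to Acacb, was 4.48, 2.69 and 1.89 with ANIT and 1.43, 0.982 and 1.45 with celastrol, 2.24-fold lower. Fads1 to Fads2 was below 1 in every ANIT library, at 0.732, 0.841 and 0.768, and above 1 in every celastrol library, at 2.15, 1.39 and 1.62, 2.17-fold higher. Among the 6 pairs this one had the smallest spread with ANIT (SD 0.10 on the log2 scale). Acly to Fasn went from 0.706, 0.773 and 1.39 to 2.23, 2.38 and 1.87, and Elovl6 to Elovl5 went from 0.300, 0.221 and 0.151 to 0.119, 0.0820 and 0.137.

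**Figure D3:**
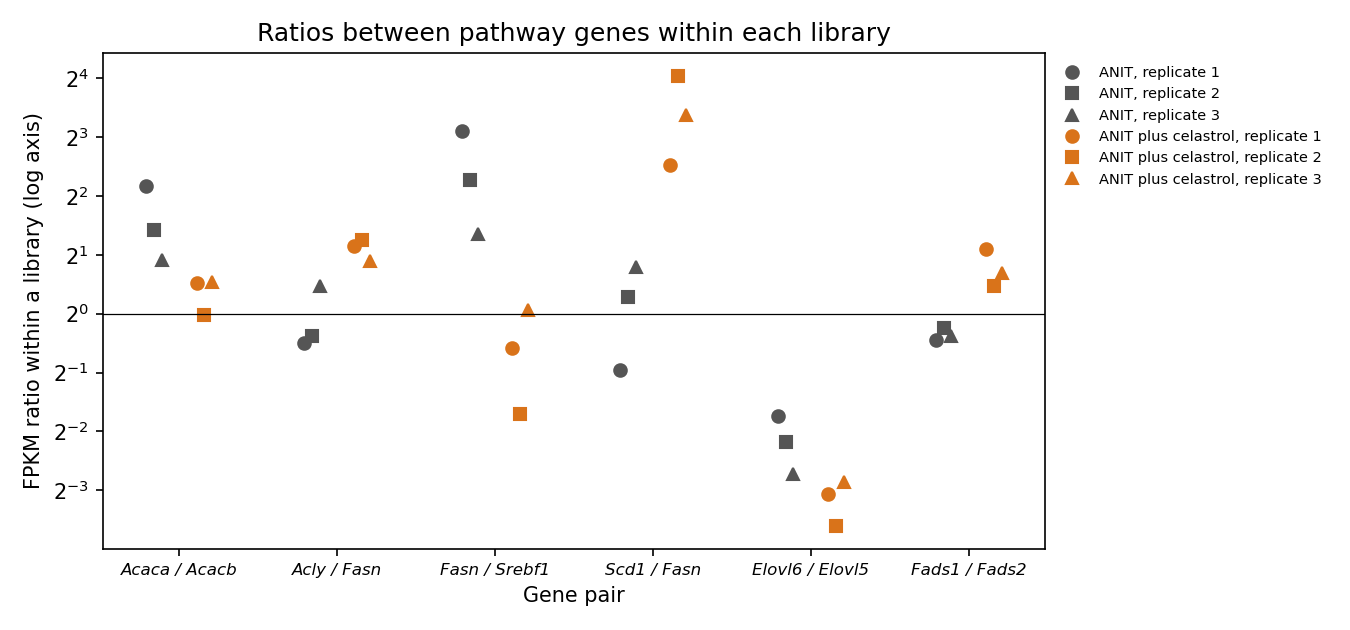
Ratio of the FPKM of paired genes within each library (log axis, line at 1), ANIT in grey and ANIT plus celastrol in orange, with a marker shape for each replicate. Scd1 to Fasn lies at 0.516 to 1.73 with ANIT and 5.75 to 16.5 with celastrol, and Fads1 to Fads2 changes sides of 1.

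Members also varied among libraries of one group. Fasn, Acaca and Elovl6 were highest in ANIT replicate 1 and lowest in ANIT replicate 3. Srebf1, Fads1 and Fads2 were lowest in replicate 1 and highest in replicate 3 of that group. With celastrol, Srebf1, Acacb, Elovl5 and Fads2 were highest in replicate 2, where Fasn, Acly and Elovl6 were lowest. In the ANIT group the order of Srebf1 was therefore the reverse of that of Fasn and the same as that of Fads1 and Fads2. With 3 libraries in each group no relation was tested.

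Around these enzymes, 62 of 67 further genes listed by role were tested, and 29 fell and none rose, where 20.6% of all genes tested were lower and 4.41% higher, with a median log2 fold change of -0.41. The falls numbered 19 with median-ratio scaling or after quantile normalization, which also gave 2 rises, 19 without ANIT replicate 1 and 16 without ANIT replicate 2. Elovl7 and Pnpla3, which fell, were not tested when an ANIT library was left out, so part of that drop is genes left untested. Genes that supply carbon and NADPH had the lowest median of these lists, -1.09, and 6 of 8 tested fell and none rose. Aacs, which activates acetoacetate in the cytosol for lipid synthesis, measured 36.21, 35.75 and 23.89 FPKM with ANIT, against 2.19, 4.31 and 3.34 FPKM with celastrol (log2 fold change -2.95 with SE 0.23, adjusted p = 0.00056 by limma). Pgd, an NADPH-forming enzyme of the pentose phosphate pathway, measured 28.37, 36.05 and 43.61 FPKM with ANIT, against 12.86, 12.44 and 15.52 FPKM with celastrol (log2 fold change -1.33, adjusted p = 0.0024 by limma). The others that fell were Slc25a1, the mitochondrial citrate carrier, Acss2, which activates acetate, Me1, the cytosolic malic enzyme, and Idh1. Cs did not pass (log2 fold change -0.39, adjusted p = 0.072 by limma). G6pdx, of the same pathway as Pgd, did not pass either and had a positive log2 fold change of 0.26 (adjusted p = 0.18 by limma). It measured 1.96, 2.26 and 2.88 FPKM with ANIT, against 3.29, 2.65 and 3.09 FPKM with celastrol. The call of Me1 was lost without ANIT replicate 2 (adjusted p over all settings 0.0032 to 0.053). That of Idh1 was lost without the filter, by quantile normalization, with median-ratio scaling and on leaving out any 1 library other than celastrol replicate 2 (adjusted p over all settings 0.0027 to 0.13).

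Of 9 further elongation genes tested 5 fell and none rose (median -0.75), where 20.6% of all genes tested were lower. There were 3 falls with median-ratio scaling, 2 after quantile normalization and 8 when rescaled to TPM. With 1 library left out 2 fell (ANIT replicate 2), 3 (ANIT replicate 1 or 3 or celastrol replicate 1), 4 (celastrol replicate 3) or 8 (celastrol replicate 2). Hacd2, a dehydratase of the elongation cycle, measured 20.5, 22.84 and 20.45 FPKM with ANIT, against 10.07, 12.01 and 10.86 FPKM with celastrol (log2 fold change -0.90 with SE 0.11, adjusted p = 0.0019 by limma). Elovl7, an elongase of saturated chains, was at 1.48 to 1.62 FPKM with ANIT, against 0.1 to 0.16 FPKM with celastrol (log2 fold change -1.18, adjusted p = 0.00085 by limma). It reached 1 FPKM only in the ANIT libraries, so it passed the filter only through the group where it was higher. Without any 1 ANIT library it was not tested, which lowers the counts given above for those omissions. Of 5 further desaturase and electron carrier genes tested 2 fell (median -0.44), where 20.6% of all genes tested were lower. They were Scd2, given above, and Fads3 (log2 fold change -0.56, adjusted p = 0.020 by limma). The Fads3 call was lost with median-ratio scaling and without ANIT replicate 1 or celastrol replicate 3, with an adjusted p of 0.0083 to 0.062 over the settings. Cyb5a, the cytochrome that passes electrons to these desaturases, was named after its values were seen, and at 874 to 945 FPKM with ANIT, against 582 to 849 FPKM with celastrol it did not pass (adjusted p = 0.11 by limma). It passed as lower when rescaled to TPM, after quantile normalization and without celastrol replicate 2 (adjusted p over all settings 0.0092 to 0.32).

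None of the 5 genes of the separate mitochondrial fatty acid synthesis route passed (median -0.20), where 20.6% of all genes tested were lower (median -0.17). The closest were Mcat, its malonyl transferase, and Acsf3, its malonyl-CoA synthetase, with log2 fold changes of -0.36 each (adjusted p of 0.057 and 0.061 by limma). When rescaled to TPM both fell, and Acsf3 also fell without celastrol replicate 2 (adjusted p = 0.036).

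SREBP and ChREBP control genes split. Of 12 tested 4 fell and none rose (median -0.24), where 20.6% of all genes tested were lower (median -0.17). Only 1 fell with median-ratio scaling, after quantile normalization or without ANIT replicate 2, and 2 fell with the replicate block or without ANIT replicate 1 or celastrol replicate 1. A rise appeared in 1 gene after quantile normalization (Mbtps1, which cleaves SREBP precursors, adjusted p = 0.048) and in 1 with the replicate block (Mlxipl). Insig1, which holds SREBP precursors in the endoplasmic reticulum, fell under each of these settings (log2 fold change -2.08, adjusted p = 0.00082 by limma). Srebf2, the SREBP form devoted to cholesterol synthesis, measured 30.41, 29.61 and 27.14 FPKM with ANIT, against 13.56, 8.64 and 17.52 FPKM with celastrol (log2 fold change -1.13 with SE 0.22, adjusted p = 0.012 by limma). Its call was lost with median-ratio scaling, after quantile normalization and without ANIT replicate 2 (adjusted p over all settings 0.0045 to 0.089). The groups of Srebf2 did not overlap, while those of Srebf1 did. The other falls, of Insig2 and Scap, held in only 5 and 4 of the 13 other settings. Their limma adjusted p over these ran from 0.016 to 0.12 and from 0.013 to 0.24. Mlxipl, named after its values were seen, had the highest log2 fold change of these 12 at 0.81 and did not pass (29.7, 60.58 and 40.97 FPKM against 61.26, 118.3 and 56.1 FPKM, adjusted p = 0.14 by limma). With the replicate block it passed (adjusted p = 0.021), and over all settings its adjusted p ran from 0.021 to 0.31.

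Among 9 tested genes that control acetyl-CoA carboxylase 3 fell and none rose (median -0.11), where 20.6% of all genes tested were lower (median -0.17). Stk11 rose after quantile normalization (adjusted p = 0.042 by limma). Mid1ip1, which promotes polymerisation of the carboxylase, fell with a log2 fold change of -0.74 (adjusted p = 0.0071 by limma), as did Prkab1, a regulatory subunit of AMP-activated kinase, with -0.74 (adjusted p = 0.0069 by limma). The catalytic subunits of that kinase, Prkaa1 and Prkaa2, had log2 fold changes of -0.06 and -0.09 and did not pass (adjusted p of 0.68 and 0.70 by limma). The other gene that fell was Thrsp, the lipogenic partner of Mid1ip1, named after its values were seen, at 111.19, 125.18 and 94.84 FPKM with ANIT, against 12.07, 52.48 and 24.11 FPKM with celastrol (log2 fold change -2.09, adjusted p = 0.027 by limma). Leaving out any 1 ANIT library or celastrol replicate 3 ended its call (adjusted p over all settings 0.0032 to 0.096).

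Of 14 tested genes that use fatty acids for glycerolipids 9 fell, with no rise (median -0.73), where 20.6% of all genes tested were lower. There were 6 falls under median-ratio scaling and 5 after quantile normalization or without ANIT replicate 2 or celastrol replicate 1. Gpam, the acyltransferase that starts triglyceride synthesis, measured 29.6, 28.75 and 17.62 FPKM with ANIT, against 8.69, 11.31 and 6.42 FPKM with celastrol (log2 fold change -1.42 with SE 0.25, adjusted p = 0.0090 by limma). Pnpla3, a lipid droplet protein, was at 1.96 to 3.82 FPKM with ANIT, against 0.07 to 0.17 FPKM with celastrol (log2 fold change -1.65, adjusted p = 0.0017 by limma). Like Elovl7, it passed the filter only through the ANIT group and was not tested when an ANIT library was left out. The count without ANIT replicate 2 therefore does not include it. Dgat1 and Dgat2, which add the last acyl chain, had log2 fold changes of -0.22 and -0.16 and did not pass (adjusted p of 0.29 and 0.52 by limma).

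**Figure D4:**
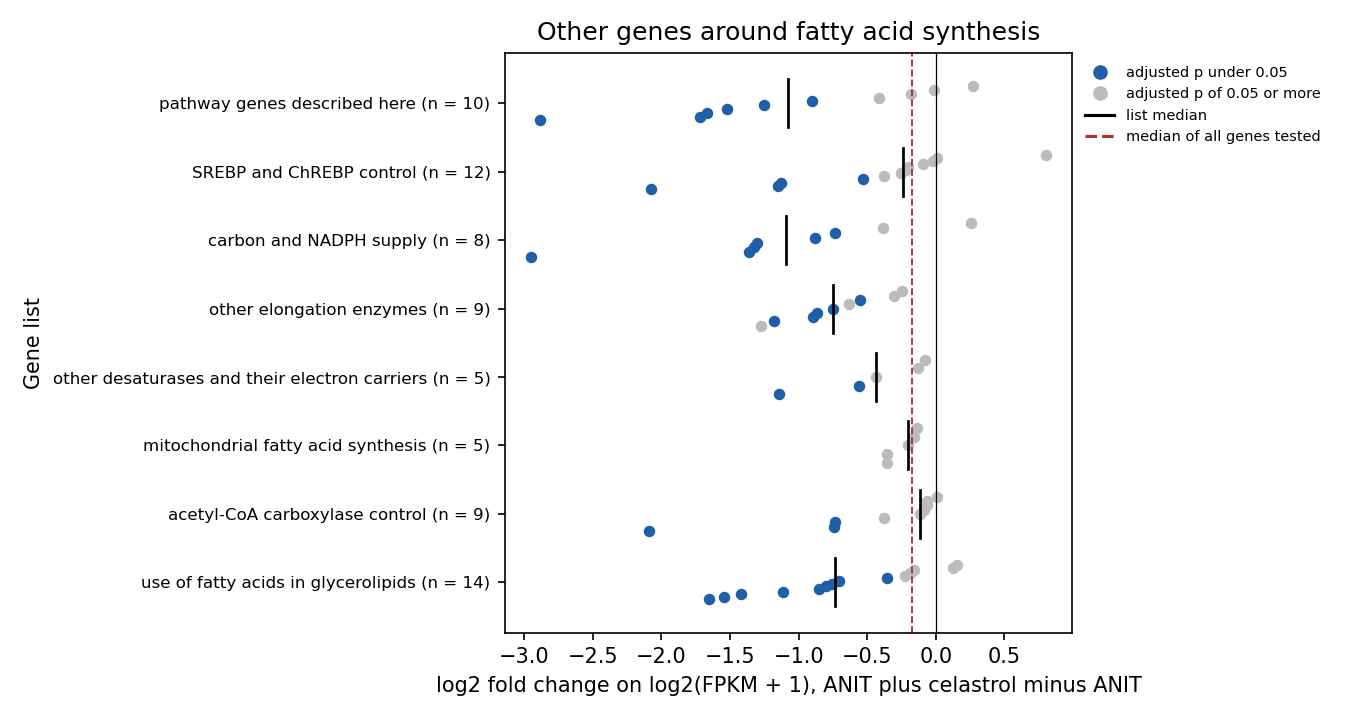
Log2 fold changes (ANIT plus celastrol minus ANIT) of the tested genes of each list, each point a gene, blue where the limma adjusted p was under 0.05, with a black line at each list's median and a dashed line at -0.17, the median of all genes tested. The carbon and NADPH supply genes have a median of -1.09, near that of the 10 pathway genes at -1.08, and the mitochondrial synthesis genes one of -0.20.

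The genes with the profile most like the mean of the 10 members over the 6 libraries were Pank3, Nfkbia, Fam35a, Slc35g1 and Hacd2, out of 5308 genes with a mean log2(FPKM + 1) of at least 3. Likeness was the root mean square difference of deviations from each gene's own mean on that scale, 0.07 for Pank3 and 0.13 for Hacd2. Pank3, a pantothenate kinase of coenzyme A synthesis, measured 14.08, 15.91 and 12.39 FPKM with ANIT, against 5.23, 6.42 and 6.67 FPKM with celastrol. Nfkbia, an inhibitor of NF-kB, measured 34.07, 45.06 and 36.16 FPKM with ANIT, against 14.46, 18.01 and 17.17 FPKM with celastrol. Since the profile contains the difference between the groups, these genes carry it too.

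Markers of liver cell types were read beside these values, since in bulk tissue fewer cells of a type and less RNA per cell cannot be told apart. Hepatocyte markers were abundant in every library, and 1 of 6 tested fell: Alb, at 29351, 29532 and 38656 FPKM with ANIT, against 5341, 10051 and 5563 FPKM with celastrol. The summed level of the 6, with ANIT mostly Alb, was 38489 to 50594 FPKM with ANIT, against 12653 to 19174 FPKM with celastrol. Hnf4a, the hepatocyte identity factor, was at 177 to 204 and 191 to 219 FPKM. The markers other than Alb did not pass, with log2 fold changes of -0.14 for Ttr, -0.31 for Apoa1, 0.11 for Hnf4a, -0.12 for Cps1 and -0.13 for Tat. Neutrophil markers rose in 3 of 3 tested genes, with a sum over 5 genes of 20.4 to 41.6 FPKM with ANIT, against 51.8 to 77.9 FPKM with celastrol. Among them Ngp, at 0.04 to 0.4 FPKM with ANIT and 1.5 to 4.36 FPKM with celastrol, passed the filter only through the group where it was higher. The part of either cell type in the members' levels was not tested.

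Fat cells also make these enzymes. Their hormone Adipoq was at 0 in 5 libraries and at 0.13 FPKM in celastrol replicate 2, and Plin1 and Lep were listed in no library. The summed adipocyte markers ran from 15.5 to 20.8 FPKM with ANIT, against 6.53 to 15.7 FPKM with celastrol, mostly Fabp4 and Cidec, and 1 of 2 tested fell. That was Cidec, which reached 1 FPKM only with ANIT and so passed the filter only through that group. Of the tested cholangiocyte markers 1 of 3 fell, namely Krt19, which likewise reached 1 FPKM only with ANIT. Of the macrophage markers none of 6 passed, of the endothelial markers 1 of 5 rose, and of the stellate and fibroblast markers none of 4 passed. Lymphocyte markers lay below the filter.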

How the data were processed

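RNA of frozen mouse liver was sequenced in 6 libraries, with groups and replicate numbers taken from the library titles. Per the file headers, the authors deposited FPKM by gene symbol, in a table for each library. HISAT2, featureCounts and the build mm10 are named in the submitters' processing notes, with no versions. No gene lengths, annotation or strand setting is given in the sources used here. A symbol without a row in a library was set to 0, and repeated symbols that had turned into dates were left out. Coordinates came from GENCODE release M21 of the same build, in which 17576 of 18253 symbols (96.3%) were found.

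Genes that reached 1 FPKM in 3 or more libraries entered a limma fit (limma 3.58.1, R 4.3.3) of log2(FPKM + 1) (trend, robust variance, group as the only term), with Benjamini-Hochberg adjustment over 10593 genes and a threshold of 0.05. Log2 fold changes on this scale understate those of low genes. An FPKM table gives no read totals, so depth was estimated from values of 0.1 to 1 FPKM and GENCODE exon lengths, and no count model was run. Ratios within a library had no pseudocount and were compared by exact permutation in scipy 1.17.1.

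Members and lists were chosen with earlier results of these data known. From each list the 2 genes with the smallest p were named, and other genes of the lists were named after their values were seen. Same-numbered libraries of the groups had correlations of their deviations from the group means of 0.149, 0.231 and -0.092, so the numbers were not taken to pair them. Other settings are given in the closing section.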

Additional observations from a re-analysis of the deposited data

How the results depend on the processing

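Other settings were a pseudocount of 0.1, no filter, median-ratio scaling, rescaling to TPM, quantile normalization, a replicate block, limma without trend and robust variance, and the omission of each library in turn. Of the 10 members, 6 fell under each setting, and 7, with Fads1 added, when rescaled to TPM, without trend and robust variance, and without celastrol replicate 2. None rose under any setting. The members' median log2 fold change was -0.82 after quantile normalization and -1.22 to -0.98 with 1 library left out.

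Over all genes tested, 2185 fell and 467 rose. The counts were 1170 and 795 with median-ratio scaling, 965 and 864 after quantile normalization, and 3813 and 389 when rescaled to TPM. With 1 library left out, 911 to 3334 fell and 196 to 476 rose. With the replicate block 2106 fell and 479 rose, and no member's call changed. The cause of these shifts was not tested.

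The log2 fold change of Srebf1 was 0.16 with median-ratio scaling, 0.26 after quantile normalization and -0.30 to 0.15 with 1 library left out, and that of Scd1 was -0.034 to 0.76 with 1 library left out. In no setting did either pass. The 6 ratios kept their direction with a pseudocount of 1 and without any 1 library. At the estimated depth, which fitted the low values loosely and is weakly supported, counting error would be small for these genes, and 3 libraries a group limit the precision.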
